A study of Homo sapiens with 20 samples.

Results

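The RNA response to all-trans retinoic acid (ATRA) was followed in HL60 cells that carried Cas9 and no targeted gene edit. HL60 is an established cell line from human acute myeloid leukemia (AML) and is arrested at a promyelocyte-like step. The Cas9 control cells express the Cas9 endonuclease in both groups compared here. The methods describe a lentiviral Cas9 vector with puromycin selection for the knockout lines and do not name the vector of the control cells. In its results, the paper speaks of Cas9 control cell clones. One group of 3 libraries, Cas9 control ATRA, was treated for 36 h with 1 µM ATRA, and the other group of 3, Cas9 control DMSO, received 0.01% of the solvent DMSO for the same time. These 6 RNAseq libraries belong to a series of 20 samples, which also holds 6 RNAseq libraries of cells labelled HK3-null and 8 ATACseq libraries. A gene was taken as expressed when its mean scaled count was 50 or more in at least 1 of the 2 Cas9 control groups, and 10701 of 28051 named genes met that rule. The rule used the level of a gene and not its change. Just inside it lay ST7-AS1 and FAM72C, whose higher group mean was 50, and just outside lay CDK18 and CIRBP-AS1 at 49.7. The replicates are described as biological replicates, and nothing in the labels says whether they came from separate clones, so the p-values below measure the spread between these samples.

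ATRA is a ligand of the retinoic acid receptors, nuclear receptors that bind DNA with a retinoid X receptor as partner and release repression of their target genes when ATRA binds. In promyelocytic leukemia cells the treatment is known to halt proliferation over several days and to bring on features of granulocytes, among them the adhesion receptor CD11b, the superoxide-producing NADPH oxidase and later granule proteins. Maturing neutrophils make the contents of their azurophil granules at the promyelocyte step, and those of specific and gelatinase granules at later steps.

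Each deposited value is the log2 of a whole-number count after scaling for library depth, called the scaled count here. Scaled counts summed to between 29053838 and 31388230 per Cas9 control library, from an estimated depth of 22700000 to 36700000 counts before scaling, and 15166 to 16750 genes were above 0. Replicates of a group correlated with each other at Pearson's r of 0.978 to 0.994 across genes, which are not independent. The promyelocyte label was met by the data, since all 5 of its markers were expressed in every library, with MPO, the myeloperoxidase of azurophil granules, at 440811 to 656074. A pair of libraries stood apart. Cas9 control DMSO replicate 1 held 108 genes with 10 or more counts that had at most 1 count in each of the other 11 RNAseq libraries, with SOX2 highest at 46 counts, and Cas9 control ATRA replicate 3 held 26 such genes, with ACADL highest at 50. The other 10 RNAseq libraries had 0 such genes. The counts of calls and several named genes are given without them as well.

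At 36 h, ATRA had moved a large share of the expressed genes by small amounts and a smaller set by large amounts, and the large changes were mostly rises. Of the 10699 expressed genes that could be tested, 854 (7.98%) differed at least 2-fold at an adjusted p below 0.05 in limma, beside 10.4% of all tested genes. The tool limma fits a linear model across all genes, here with Benjamini-Hochberg adjustment, and a gene is said below to have risen or fallen only where it passed both limits. A total of 593 (5.54%) rose and 261 (2.44%) fell. Over all 13429 genes tested, 975 rose (7.26%) and 424 fell (3.16%), so 69.7% of the calls were rises. That share was 55.8% after quantile normalization, and for the expressed genes the split became 527 rises and 332 falls. The log2 fold change of all expressed genes had a median of −0.02 with quartiles at −0.28 and 0.27, and the median standard error (SE) was 0.10. Without regard to fold, 5039 expressed genes (47.1%) passed the adjusted p, of which 2330 (21.8%) were higher in ATRA and 2709 (25.3%) lower. In 5967 expressed genes (55.8%) the 3 ATRA values did not overlap the 3 DMSO values, and this held for 851 of the 854 called genes.

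The asymmetry grew with the size of the change. At least 4-fold rises were seen in 211 genes and falls in 40, at least 8-fold rises in 117 and falls in 13, and at least 16-fold rises in 69 and falls in 4. At 32-fold or more there were 50 rises and 0 falls in limma with these limits, and at 64-fold or more 33 rises and 0 falls. The median log2 fold change was 1.64 among the genes that rose and −1.34 among those that fell. Of the 371 genes at the level of 50 in ATRA alone, 240 rose, and of the 185 at that level in DMSO alone, 58 fell. These genes had to differ to some degree to be in 1 group alone. Among the 10143 genes at that level in both groups, 353 rose and 203 fell. The counts of called genes include 548 rises and 244 falls among 10020 protein-coding genes, and 23 rises and 11 falls among 295 long non-coding RNAs. Without Cas9 control DMSO replicate 1 there were 593 rises and 228 falls, and without both libraries that stood apart 565 rises and 210 falls. Of these, 522 rises and 189 falls were also called with all 6 libraries.

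**Figure D1:**
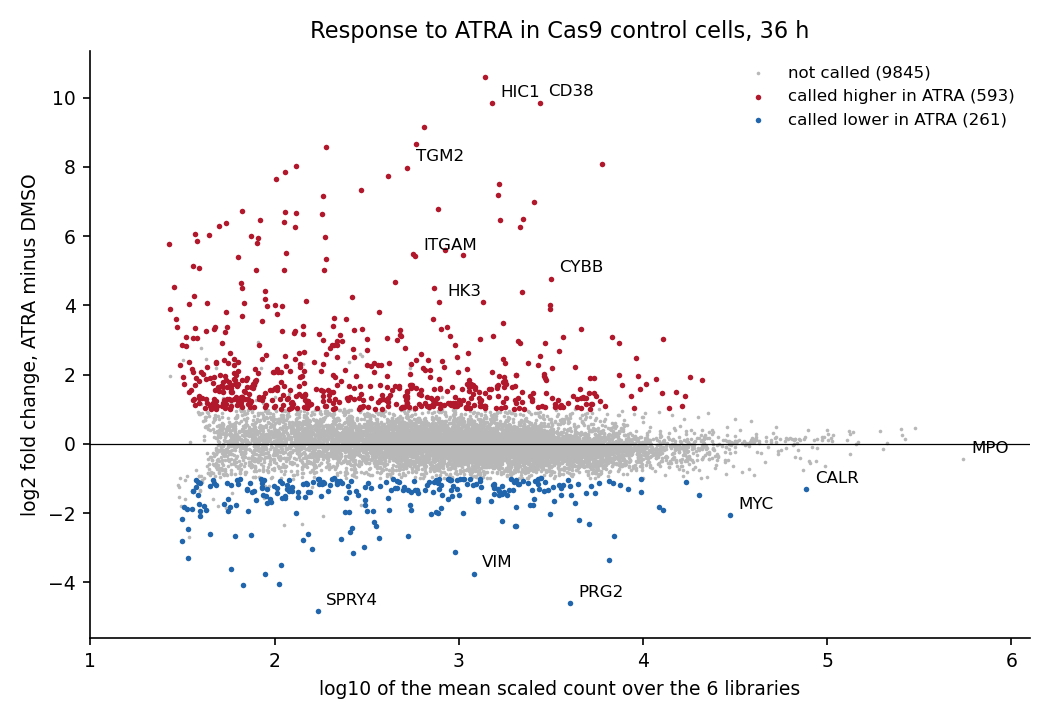
Log2 fold change of each expressed gene (vertical axis, ATRA minus DMSO on the log2(scaled count + 1) scale) against its mean level over the 6 Cas9 control libraries (horizontal axis, log10 of the scaled count), with called rises and falls coloured. The cloud of genes is centred near 0, rises reach past a log2 fold change of 10, and falls end near −5.

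The 5 marker genes given for the experiment all rose, and in each the ATRA and DMSO libraries were far apart. HK3 (chr5:176880869-176899346, GRCh38), the hexokinase isoform found mainly in myeloid cells, had scaled counts of 1305, 1298 and 1850 in ATRA replicates 1 to 3 and 90, 65 and 105 in DMSO. The lowest ATRA value was well above the highest DMSO value, and the means were 1484 ± 317 and 86.7 ± 20.2 (SD, n = 3 each), a 17.1-fold rise (log2 fold change 4.09, SE 0.20, adjusted p = 9.06e-09, limma). ITGAM (chr16:31259975-31332877) encodes CD11b, the integrin chain used as a surface marker of myeloid maturation. It went from 23, 27 and 27 counts in DMSO to 1073, 1040 and 1289 in ATRA (log2 fold change 5.41, SE 0.12, adjusted p = 6.06e-12, limma). CYBB (chrX:37780059-37813461) encodes gp91phox, the catalytic subunit of the NADPH oxidase. Its counts were 241, 251 and 180 in DMSO and 6412, 5871 and 5973 in ATRA, with no overlap (log2 fold change 4.77, SE 0.11, adjusted p = 6.06e-12, limma).

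CD38 (chr4:15778328-15853232), an NAD-consuming ectoenzyme and a known early target of retinoids, was almost silent in DMSO. Its counts were 5, 6 and 4 in DMSO and 6157, 5181 and 5190 in ATRA, a change of 9.85 on the log2 scale (SE 0.13, adjusted p = 6.18e-14, limma). TGM2 (chr20:38127385-38168475) encodes tissue transglutaminase, a protein-crosslinking enzyme long known to respond to retinoids. It had 10, 1 and 2 counts in DMSO and 801, 946 and 1393 in ATRA, which do not overlap (log2 fold change 7.98, SE 0.53, adjusted p = 1.50e-07, limma). The largest DMSO value of TGM2 came from replicate 1, and without that library the log2 fold change was 8.70. The responses of all 5 markers in the libraries labelled HK3-null differed from these in a test of the interaction of genotype and treatment, which 9.81% of all tested genes passed. The response was smaller there for HK3, ITGAM, CYBB and CD38 and larger for TGM2.

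**Figure D2:**
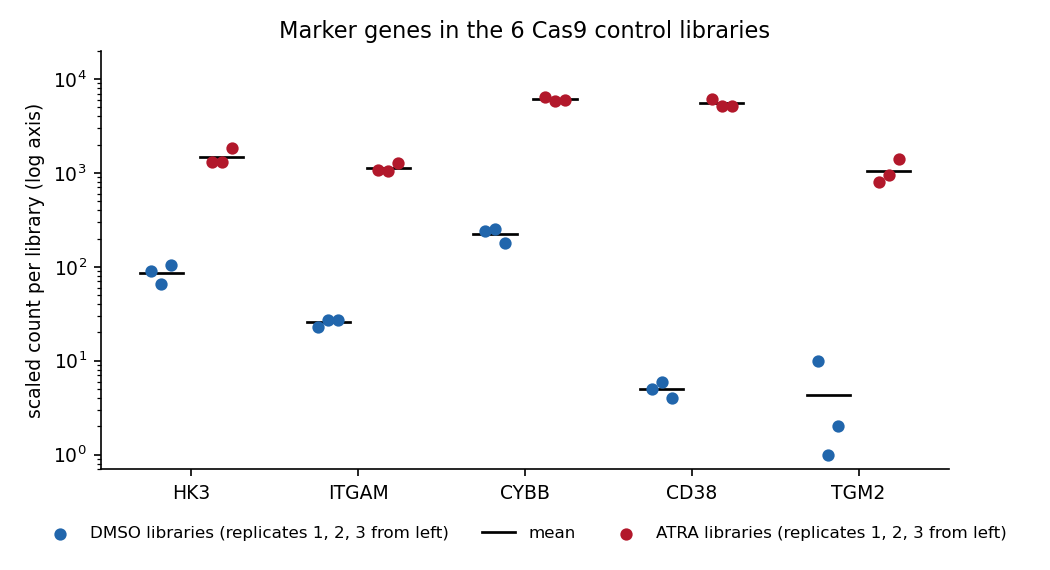
Scaled count (log axis) of HK3, ITGAM, CYBB, CD38 and TGM2 in each of the 6 Cas9 control libraries, with 1 point per library and the mean of each group as a line. In every marker the 3 ATRA points lie above the 3 DMSO points, with the widest gap for CD38, from at most 6 counts to at least 5181.

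Promoter sequence was read for the members because groups of them moved together. RefSeq promoter windows of GRCh38.p14, from 250 bases before to 50 bases after a gene's start, were matched to 8648 expressed genes, among them 447 of those that rose and 198 of those that fell. A retinoic acid response element was searched as a direct repeat of the half-site AGGTCA or its variants, of which the first is AGTTCA, the next is GGGTCA and the last GGTTCA, with 1, 2 or 5 bases between them, on both strands. It was found in 70 of all 27305 promoters (0.256%), in 22 of the 8648 expressed genes (0.254%), in 1 of the 447 that rose (0.224%) and in 1 of the 198 that fell (0.505%). These shares do not set the genes that moved apart, and the windows are short. The promoter among the rises belongs to BATF2, a transcription factor of the AP-1 family, and the promoter among the falls to PAM16, a part of the mitochondrial import motor. Both genes were singled out after their values were seen. BATF2 had 126, 249 and 405 counts in ATRA and 1, 1 and 2 in DMSO (log2 fold change 6.68, SE 0.39, and 6.18 without both libraries that stood apart), and PAM16 had 108, 76 and 95 against 217, 190 and 198 (log2 fold change −1.12). The sequence of BATF2 is shown for its repeat with 5 bases between the half-sites, here in capitals from AGTTCA to GGGTCA, as the 250 bases before its start on the minus strand (chr11:64990278-64990527, GRCh38.p14).
BATF2: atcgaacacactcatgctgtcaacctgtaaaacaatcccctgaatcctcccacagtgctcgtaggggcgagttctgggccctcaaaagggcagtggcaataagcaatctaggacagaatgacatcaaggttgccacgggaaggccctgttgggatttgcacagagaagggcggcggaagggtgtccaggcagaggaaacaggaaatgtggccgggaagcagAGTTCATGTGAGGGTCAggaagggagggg

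The motif GAAANNGAAA, a pair of the GAAA blocks read by interferon regulatory factors, was chosen after the values were seen, and N stands for any base. Searched on both strands, it was in 996 of all 27305 promoters (3.65%) and in 245 of the 8648 expressed genes (2.83%). Among the genes that rose it was in 38 of 447 (8.5%), and among those that fell in 4 of 198 (2.02%), namely ATF5, CDC42EP3, HERC5 and TRIM16. Of the raised genes of the interferon-stimulated list described below, 15 had a promoter window and 6 of these (40%) held the motif, which are GBP4, IFI6, IFIT5, LGALS3BP, OAS3 and PARP14. A match is a description of the letters and does not show that a factor was bound. Shown 5′ to 3′ are the 250 bases before the start of IFI6 (chr1:27672193-27672442, minus strand), PARP14 (chr3:122680589-122680838, plus strand) and CYBB (chrX:37779809-37780058, plus strand), with each match in capitals. IFI6 holds 3 matches, PARP14 holds 1 and CYBB holds 2, of which the first is on the other strand and so reads as the reverse complement.
IFI6: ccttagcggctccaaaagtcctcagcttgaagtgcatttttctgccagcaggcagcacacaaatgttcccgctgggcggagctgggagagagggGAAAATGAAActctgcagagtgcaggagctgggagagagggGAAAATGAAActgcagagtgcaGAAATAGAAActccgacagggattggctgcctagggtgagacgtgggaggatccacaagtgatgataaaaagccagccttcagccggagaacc
PARP14: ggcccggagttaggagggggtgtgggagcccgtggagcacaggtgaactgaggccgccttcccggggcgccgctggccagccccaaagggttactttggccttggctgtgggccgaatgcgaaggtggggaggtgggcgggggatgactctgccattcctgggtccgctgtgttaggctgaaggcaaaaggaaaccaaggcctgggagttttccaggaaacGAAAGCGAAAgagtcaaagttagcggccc
CYBB: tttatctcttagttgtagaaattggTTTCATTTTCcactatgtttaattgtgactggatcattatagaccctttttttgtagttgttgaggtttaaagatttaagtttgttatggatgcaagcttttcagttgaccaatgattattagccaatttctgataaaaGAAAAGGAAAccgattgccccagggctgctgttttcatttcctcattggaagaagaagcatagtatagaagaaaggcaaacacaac

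Many of the largest rises began from RNA that was hardly detected in DMSO. LOC100506585, an uncharacterised locus, had 2527, 2837 and 2997 counts in ATRA and 1, 2 and 0 in DMSO (log2 fold change 10.58, SE 0.36). HIC1, a zinc-finger repressor, had 3431, 3180 and 2489 counts against 11, 2 and 0 (log2 fold change 9.83, SE 0.71). The fold of HIC1 depends on single DMSO libraries and was 10.76 without replicate 1 and 8.97 without replicate 3, on the log2 scale. DHRS3, which reduces retinaldehyde to retinol, had 1267, 1342 and 1267 counts against 5, 1 and 0, and its log2 fold change of 9.14 was 9.84 without DMSO replicate 1 and 8.54 without DMSO replicate 3. GBP4, an interferon-inducible GTPase, had 1125, 1162 and 1206 counts against 3, 1 and 2 (log2 fold change 8.66). In these genes the libraries of a group were close to each other in ATRA. That the groups did not overlap was a condition of their choice.

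Genes listed at 0 in all DMSO libraries allow a lower bound alone, computed against 3 counts per library, which is what a count of 0 allows from counting error. MLXIPL, the carbohydrate-responsive factor ChREBP, had 367, 332 and 448 counts in ATRA and was at least 139-fold higher than in DMSO. CCL24, an eosinophil-attracting chemokine, had 228, 267 and 291 counts and was at least 95.4-fold higher. LILRA5, an activating leukocyte immunoglobulin-like receptor, had 166, 187 and 259 counts and was at least 74.3-fold higher. Passing the limma test was a condition of their choice, and no DMSO library held a count.

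FGR, a Src-family kinase of myeloid cells, rose from 48, 46 and 36 counts to 11122, 11773 and 13015 (log2 fold change 8.08, SE 0.10). SOCS3, a feedback inhibitor of cytokine signalling, had 709, 890 and 870 counts in ATRA and 13, 0 and 3 in DMSO. Its log2 fold change of 7.74 became 8.68 without DMSO replicate 1 and 6.78 without DMSO replicate 2. ICAM1, the adhesion ligand of CD11b, had 604, 637 and 514 counts against 1, 5 and 3 (log2 fold change 7.33). SEMA6B, a transmembrane semaphorin, had 3108, 3158 and 3510 against 23, 18 and 24 (log2 fold change 7.18). NCF1C, at 3456, 3344 and 3130 against 14, 20 and 18, is a near-identical copy of NCF1, so reads may have been split between the copies and its value is uncertain.

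The largest falls were of genes with varied functions and were smaller than the largest rises. SPRY4, an inhibitor of receptor tyrosine kinase signalling, went from 357, 298 and 339 counts in DMSO to 13, 6 and 15 in ATRA (log2 fold change −4.83, SE 0.43, adjusted p = 2.52e-06, limma). PRG2, the major basic protein of eosinophil granules, went from 7754, 8164 and 7250 to 329, 391 and 252 (log2 fold change −4.59, SE 0.13). GATA2, a transcription factor of progenitors and of the basophil and eosinophil lines, went from 441, 476 and 527 to 73, 50 and 41 (log2 fold change −3.15). SERPINB10, a myeloid serine protease inhibitor, went from 12658, 11870 and 11136 to 1296, 1021 and 1177 (log2 fold change −3.36). IGLL1, the surrogate light chain component also found in immature myeloid cells, went from 1680, 1619 and 1836 to 233, 194 and 160 (log2 fold change −3.14). The DMSO values of each of these were close together. Having all 3 ATRA values below all 3 DMSO values was a condition of their choice.

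A further group of large falls rested in part on Cas9 control DMSO replicate 1. VIM, the intermediate filament vimentin, had 4070, 1499 and 1239 counts in DMSO and 160, 146 and 131 in ATRA (log2 fold change −3.75, SE 0.32, adjusted p = 1.63e-06, limma), and was at −3.22 without that library and −3.15 without both libraries that stood apart. MAP1A, a microtubule-associated protein, had 125, 35 and 31 against 4, 5 and 4, and its log2 fold change of −3.31 became −2.68 without replicate 1. In both genes the other DMSO libraries were also above every ATRA library, which the choice of genes without overlap required.

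The remaining named falls were of similar size. GSG1, known from germ cells, had 198, 186 and 213 counts in DMSO and 13, 13 and 8 in ATRA (log2 fold change −4.05), and GRM8, a glutamate receptor, had 172, 160 and 169 against 13, 11 and 10 (log2 fold change −3.77). CHAC1, which degrades glutathione, had 102, 128 and 94 against 12, 8 and 5 (log2 fold change −3.60). SLC1A3, a glutamate and aspartate transporter, had 251, 128 and 218 against 23, 12 and 15 (log2 fold change −3.49). S1PR3, a sphingosine 1-phosphate receptor, changed by −3.04, CA2, a carbonic anhydrase, by −2.98 and RTN4RL2, a relative of the Nogo receptor, by −2.82 on the log2 scale. SPRY4, GSG1, CHAC1 and MAP1A did not pass when the deposited values were fitted as they are, with 0 at the log2 of 0.001, at adjusted p = 0.0949, 0.126, 0.204 and 0.234 (limma), although their folds were of like size.

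**Figure D3:**
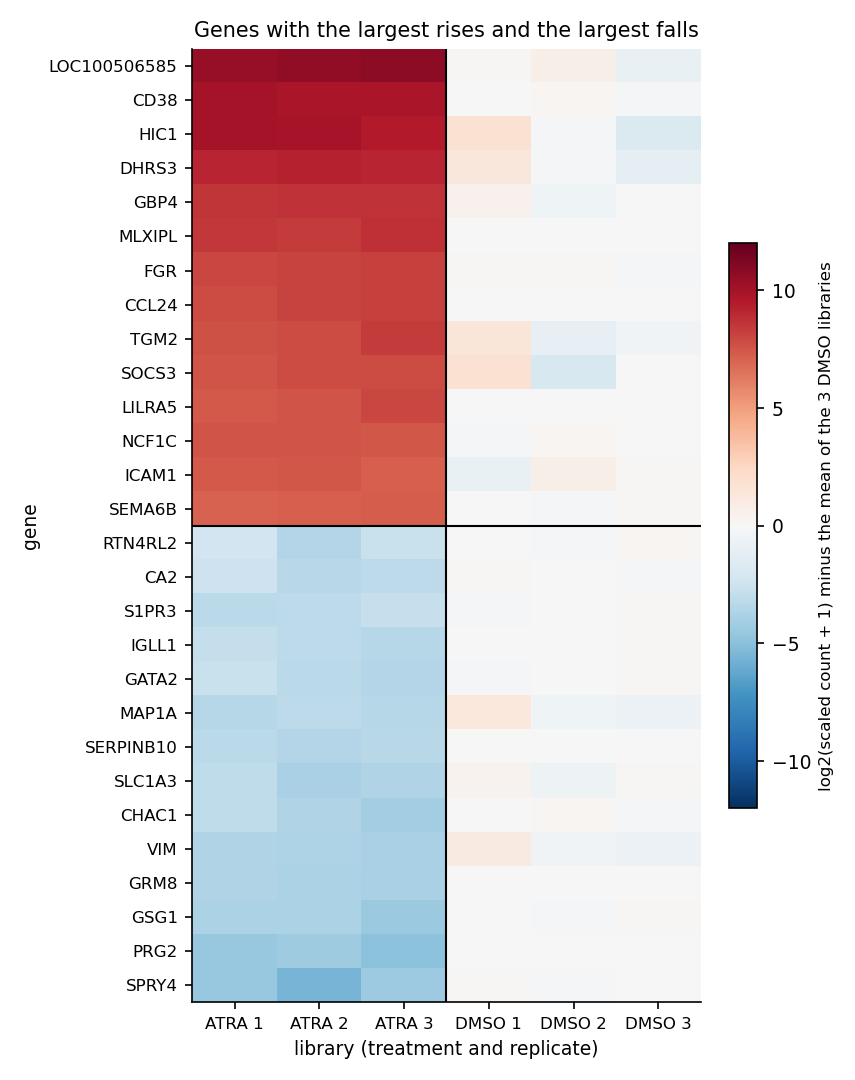
Heat map of genes with the largest rises and the largest falls (rows) in the 6 Cas9 control libraries (columns), where colour gives log2(scaled count + 1) minus the mean of the 3 DMSO libraries, red for higher and blue for lower. The 3 ATRA columns are alike within each gene, the rises are deeper in colour than the falls, and DMSO replicate 1 stands out from the other DMSO columns for HIC1, TGM2, SOCS3, MAP1A and VIM.

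Among the called genes, the largest differences in scaled counts, which are not scaled for gene length, were in other genes. CALR, the endoplasmic reticulum chaperone calreticulin, went from 115130, 109267 and 105582 to 46848, 44800 and 40871 (log2 fold change −1.32), and MYC, the growth-promoting transcription factor, from 51419, 42067 and 50378 to 12073, 9654 and 12796 (log2 fold change −2.06, adjusted p = 1.48e-07, limma). TFRC, the transferrin receptor, changed by −1.47, MLC1, a membrane protein, by −1.91 and ATF5, a stress-responsive factor, by −1.81 on the log2 scale. On the rising side, APLP2, a relative of the amyloid precursor protein, went from 9407, 9332 and 8790 to 32677, 33865 and 31636 (log2 fold change 1.83). ALOX5AP, the protein that presents arachidonic acid to 5-lipoxygenase, went from 2892, 2909 and 2662 to 22920, 23332 and 22676 (log2 fold change 3.03). CTSD, the lysosomal protease cathepsin D, changed by 1.93, LBR, a nuclear membrane protein that shapes the neutrophil nucleus, by 1.48 and NECTIN1, an adhesion molecule, by 1.38. These 10 genes were taken from called genes whose groups did not overlap, so that trait was set by the choice.

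**Figure D4:**
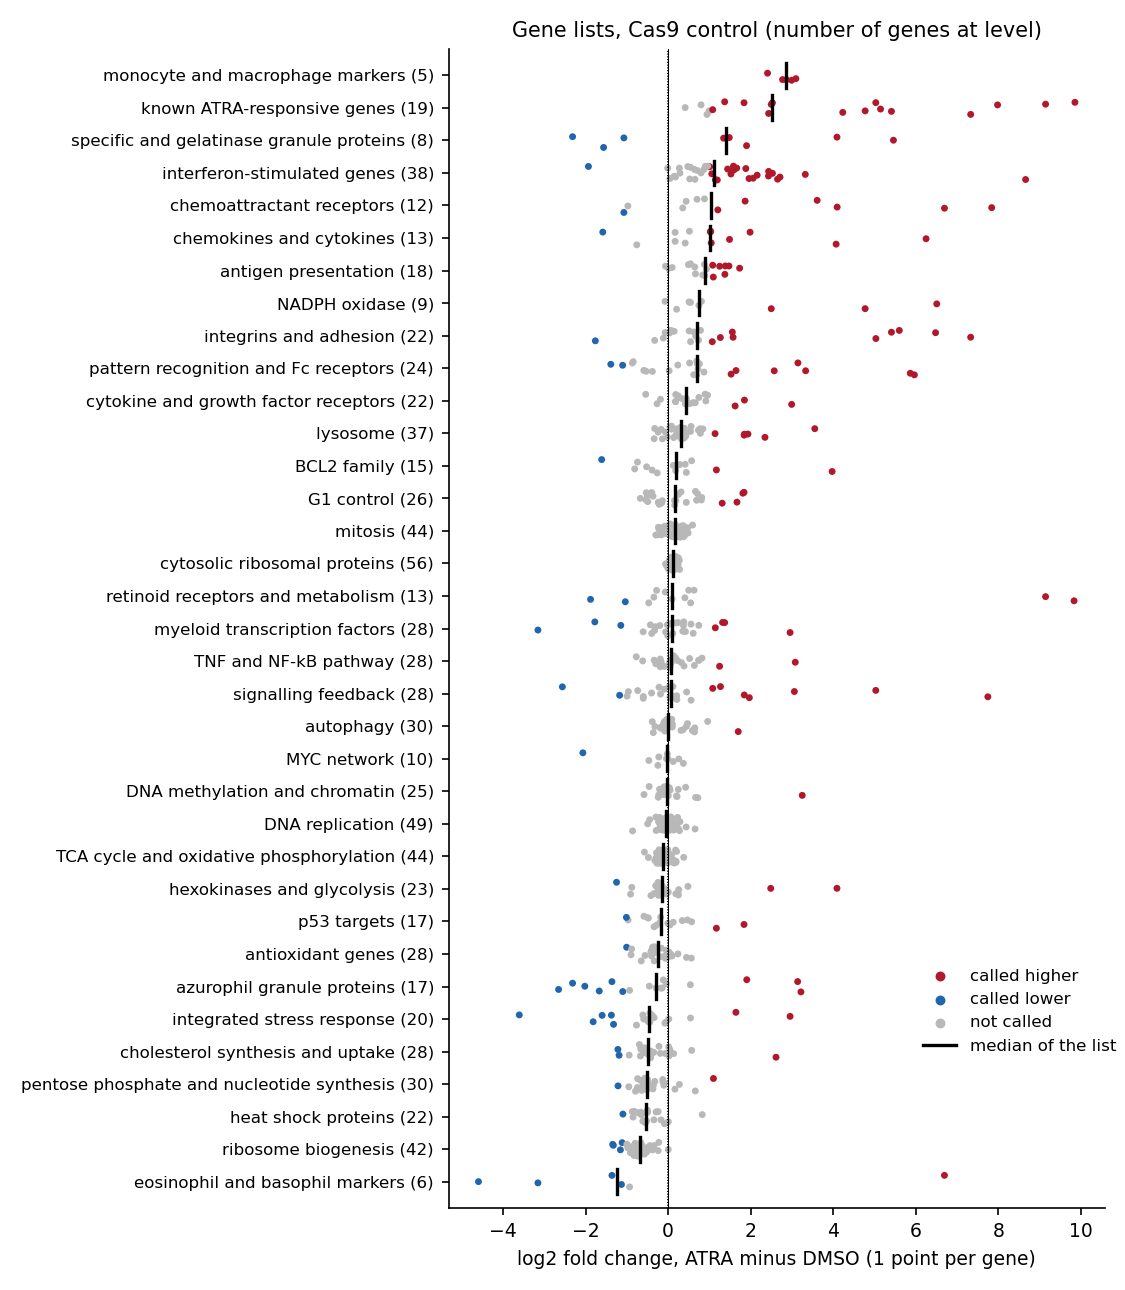
For each gene list with at least 5 expressed genes, the log2 fold change (horizontal axis, ATRA minus DMSO) of every expressed gene of the list as a point, coloured where it rose or fell, with the median as a vertical line. Lists of ATRA-responsive genes, monocyte markers, interferon-stimulated genes and chemoattractant receptors have medians above 1, and nearly all ribosome biogenesis genes lie below 0. The medians above 1 include genes that met the level set for expressed genes in ATRA alone. Among genes that met it in both groups, the median of chemoattractant receptors was 0.70.

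Genes of the retinoid receptor and metabolism list moved in both directions. For this and every later list, the shares over all expressed genes were 5.54% rises and 2.44% falls. Without a fold limit, 21.8% were higher and 25.3% lower at an adjusted p below 0.05 in limma. Of the 13 expressed genes of the retinoid receptor and metabolism list, 2 rose and 2 fell, with a median log2 fold change of 0.10 against −0.02 for all expressed genes. HIC1 and DHRS3, described above, were the rises. RXRA, the main retinoid X receptor of myeloid cells, went from 5430, 5082 and 5223 counts to 2641, 2570 and 2459 (log2 fold change −1.04, SE 0.05), and ALDH1A1, which makes retinoic acid from retinaldehyde, from 67, 44 and 57 to 24, 10 and 12 (log2 fold change −1.88, SE 0.45). RARA, the receptor subtype that drives granulocytic maturation, had 2030, 2137 and 1457 counts in ATRA and 1361, 1179 and 1066 in DMSO, a difference of 0.63 that passed the limma test (adjusted p = 0.00386) without reaching 2-fold. RARB, a classical target of its own ligand, had 21, 19 and 23 counts in ATRA and 1, 0 and 0 in DMSO, and CYP26A1, which breaks ATRA down, had 4, 3 and 1 against 0 in all 3, so both lay below the level set for expressed genes.

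Of 26 genes known from other work to respond to ATRA, 19 were expressed, 15 rose and 0 fell by limma (18 were higher and 0 lower at an adjusted p below 0.05 without a fold limit), with a median of 2.53. Of these 19, 9 reached the level of 50 in ATRA alone and so had to be higher there, and of the 10 at that level in both groups 6 rose and 0 fell, with a median of 1.23. ASB2, a ubiquitin ligase subunit, had 375, 466 and 651 counts in ATRA and 33, 16 and 29 in DMSO (log2 fold change 4.23). ID1, an inhibitor of helix-loop-helix factors, had 213, 220 and 220 against 9, 5 and 4 (log2 fold change 5.03). UBA7, the enzyme that activates ISG15, changed by 2.43 and IRF1, an interferon regulatory factor, by 2.53. PRAM1, an adaptor of neutrophil signalling, passed the test at 1.00, just below the fold limit, and TNFSF10, the death ligand TRAIL, differed by 0.41 (adjusted p = 0.203, limma).

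Transcription factors of the myeloid line went both ways. Of 28 expressed factors, 4 rose and 3 fell, beside 7.98% of all expressed genes called, with a median of 0.09. CEBPB, a C/EBP factor of later granulocytic and monocytic steps, went from 545, 447 and 447 counts to 4061, 3964 and 3164 (log2 fold change 2.95, SE 0.14). CEBPE, needed for specific granules, went from 4812, 4511 and 5108 to 11234, 12783 and 13333 (log2 fold change 1.37). RUNX3 and RUNX2, Runt-domain factors, changed by 1.32 and 1.14. The falls were GATA2, ERG (96, 93 and 98 counts in DMSO against 36, 20 and 28 in ATRA, log2 fold change −1.77) and MYB (7381, 8023 and 8381 against 3161, 3469 and 4182, log2 fold change −1.15), all factors of hematopoietic progenitors. SPI1, which encodes the master factor PU.1, had 7980, 8019 and 7473 counts in ATRA and 6749, 6428 and 6713 in DMSO, a difference of 0.24 (adjusted p = 0.00419, limma). CEBPA, the factor of early granulocytic commitment, had 12264, 14623 and 12694 against 14453, 12021 and 11245, which overlap (log2 fold change 0.07, adjusted p = 0.596, limma).

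Integrins and adhesion receptors rose more often than they fell. Of 22 expressed genes, 9 rose and 1 fell, with a median of 0.70. Of the 22, 5 met the level set for expressed genes in ATRA alone and so had to be higher there. Among the 17 that met it in both groups, 4 rose and 1 fell, with a median of 0.54. Besides ITGAM, the largest rises were CEACAM1, an adhesion molecule of the carcinoembryonic antigen family, with 120, 152 and 228 counts in ATRA and 2, 0 and 1 in DMSO (log2 fold change 6.48), ITGB7, a lymphocyte and eosinophil integrin chain, with 1433, 1754 and 1772 against 32, 35 and 32 (5.60), and ITGAX, which encodes CD11c, with 124, 124 and 214 against 5, 3 and 3 (5.03). ITGB2, the CD18 chain that pairs with CD11b and CD11c, had 14515, 14511 and 14170 against 4985, 4911 and 4619, a smaller change of 1.57 with SE 0.05. PECAM1, ITGAL and ITGA5 changed by 1.56, 1.27 and 1.07. CD44, the hyaluronan receptor, was the fall, from 4082, 4335 and 3257 counts to 1363, 1290 and 839 (log2 fold change −1.76).

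The subunits of the NADPH oxidase rose unequally. Of 9 expressed genes, 3 rose and 0 fell (8 were higher and 0 lower at an adjusted p below 0.05 in limma), with a median of 0.75. NCF1, which encodes p47phox, the organizing cytosolic subunit, had 4635, 4416 and 4189 counts in ATRA and 58, 33 and 56 in DMSO (log2 fold change 6.51), with the uncertainty of its near-identical copies. CYBA, which encodes p22phox, the partner of gp91phox in the membrane, had 5511, 5867 and 5732 against 3419, 3127 and 3678 and differed by 0.75. NCF4 (p40phox) and RAC2, the GTPase of the complex in neutrophils, differed by 0.54 and 0.51, while RAC1 was at −0.07 (adjusted p = 0.310, limma). CYBB is given above.

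Azurophil granule genes went both ways. Of 17 expressed genes, 3 rose and 6 fell, with a median of −0.29. CTSG, the serine protease cathepsin G, went from 12456, 11535 and 11804 counts to 2173, 1816 and 1728 (log2 fold change −2.65, SE 0.09), LYZ, lysozyme, from 8687, 8668 and 7998 to 1778, 1691 and 1630 (−2.31), and CST7, the protease inhibitor cystatin F, from 5043, 4945 and 5024 to 1291, 1305 and 1121 (−2.02). ELANE, neutrophil elastase, went from 24587, 22165 and 23584 to 11631, 11030 and 10204 (−1.10). PRSS57, a related protease, and RNASE3, a ribonuclease of eosinophil granules, changed by −1.67 and −1.36. The rises were DEFA4, a defensin, with 87, 98 and 108 counts in ATRA against 12, 6 and 12 in DMSO (3.22), BPI, which permeabilizes bacteria, with 824, 869 and 904 against 107, 80 and 108 (3.14), and SERPINB1, an inhibitor of these proteases, with 8671, 8030 and 8967 against 2459, 2227 and 2167 (1.91).

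MPO, AZU1 and PRTN3, the other promyelocyte markers of that granule, differed by less than 2-fold. MPO had 484185, 467401 and 440811 counts in ATRA and 656074, 616910 and 631840 in DMSO, a difference of −0.45 (adjusted p = 0.000845, limma), and after quantile normalization, where it held the highest rank in every library, the difference was 0. AZU1, azurocidin, differed by −0.29 (adjusted p = 0.0108, limma) and did not pass after quantile normalization (adjusted p = 0.117) or without both libraries that stood apart (0.0815). PRTN3, proteinase 3, had 92586, 83854 and 76693 counts against 97953, 82266 and 94171, which overlap (log2 fold change −0.12, adjusted p = 0.354, limma).

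Of 20 genes in the list of specific and gelatinase granules 8 were expressed, of which 5 rose and 3 fell. Their median was 1.41, and it was −1.07 for the 5 genes that met the level in both groups, of which 2 rose and 3 fell. CFP, properdin of the alternative complement pathway, had 1873, 2122 and 2187 counts in ATRA and 37, 52 and 50 in DMSO (log2 fold change 5.46), and CHI3L1, a chitinase-like protein, had 8099, 7434 and 8766 against 2163, 2008 and 2334 (1.90). HK3, HP, the hemoglobin-binding haptoglobin, and MMP25, a membrane metalloproteinase, made up the other rises, at 4.09, 1.48 and 1.34. HK3 is a hexokinase and not a granule content, but the list holds it, so it enters these counts and medians. The falls were LYZ, SLPI, an antiprotease, with 184, 148 and 180 counts in DMSO against 68, 51 and 53 in ATRA (−1.56), and FPR2, a formyl peptide receptor (−1.07). LTF, LCN2, CAMP, MMP8 and MMP9, which encode defining contents of these granules, had at most 6 counts in every library of both groups.

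**Figure D5:**
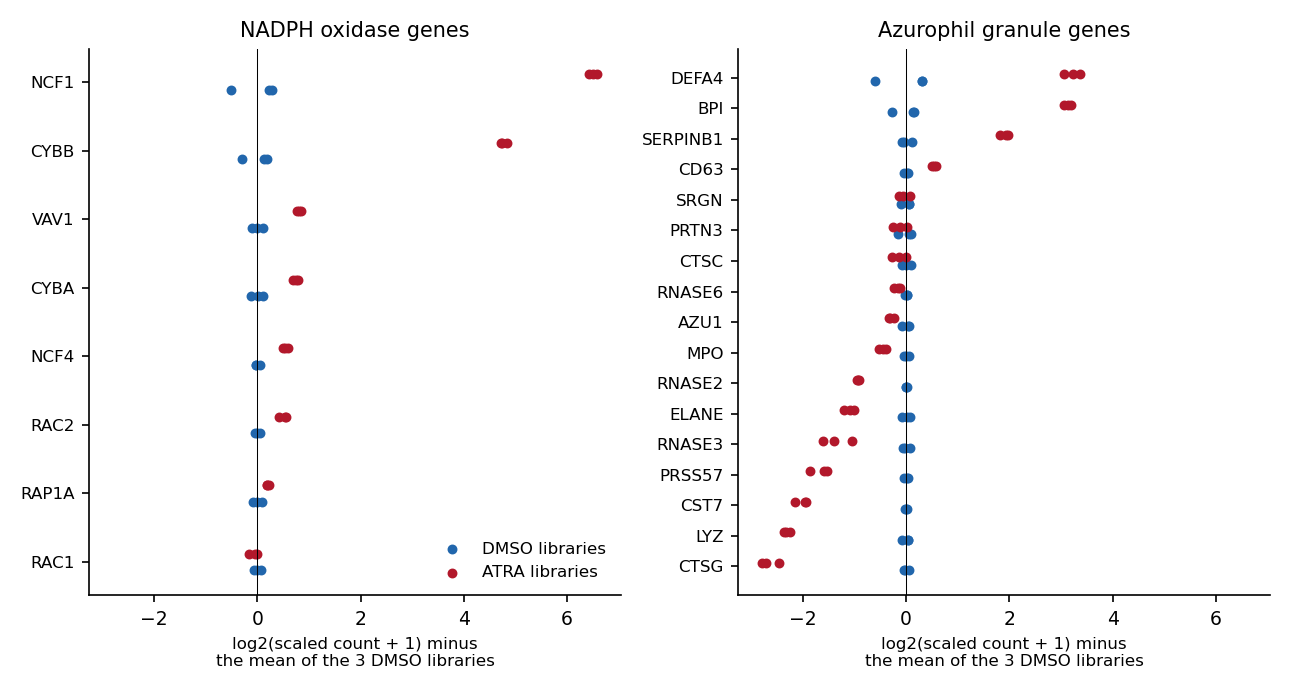
Log2(scaled count + 1) minus the mean of the 3 DMSO libraries (horizontal axis) for expressed NADPH oxidase genes (left) and azurophil granule genes (right), with 1 blue point per DMSO library and 1 red point per ATRA library. CYBB and NCF1 stand apart from the other oxidase genes drawn, and the azurophil genes run from a log2 fold change of −2.65 for CTSG to 3.22 for DEFA4.

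Receptors for chemoattractants and chemokines rose more often than they fell. Of 12 expressed receptors, 6 rose and 1 fell, with a median of 1.04. Of the 12, 3 met the level set for expressed genes in ATRA alone and so had to be higher there. Among the 9 that met it in both groups, 3 rose and 1 fell, with a median of 0.70. CCR1, a receptor of inflammatory chemokines, had 2817, 2511 and 2321 counts in ATRA and 139, 141 and 165 in DMSO (log2 fold change 4.09), and CCR2, the receptor of CCL2, had 1152, 1318 and 1526 against 89, 84 and 166 (3.61). CCR3, the eotaxin receptor, had 173, 231 and 273 against 0, 4 and 1. Its log2 fold change of 6.69 was 7.30 without DMSO replicate 2 and 5.99 without both libraries that stood apart. PTAFR and LTB4R, receptors of the lipid attractants PAF and leukotriene B4, rose by 1.87 and 1.20. CXCR2, the main interleukin-8 receptor of neutrophils, differed by 0.70 and CXCR4, which holds cells in the marrow, by 0.44, and both lost the adjusted p without DMSO replicate 2 (0.0521 and 0.152, limma). CXCR2 also lost it without both libraries that stood apart (0.0839). CXCR4 also lost it without DMSO replicate 3 (0.130) and without ATRA replicate 1 (0.169).

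Among chemokines and cytokines 13 of 32 genes were expressed, of which 7 rose and 1 fell, with a median of 1.02. Of the 13, 3 met the level set for expressed genes in ATRA alone and 1 in DMSO alone. The direction of these was set by that rule. Among the 9 that met the level in both groups, 4 rose and 0 fell, with a median of 0.52. CCL2, which attracts monocytes, had 5122, 4544 and 2983 counts in ATRA and 102, 56 and 26 in DMSO (log2 fold change 6.25, SE 0.39), and 6.94 without both libraries that stood apart. CCL22 rose by 4.07 and OSM, oncostatin M, by 1.99. CXCL8, interleukin-8, had 364, 276 and 272 against 135, 110 and 82 (1.49), and IL16, IL18 and CCL5 rose by 1.04, 1.03 and 1.02. TNF was the fall, from 175, 160 and 90 counts to 54, 52 and 32 (−1.58). Cytokine receptors moved less: of 22 expressed genes 3 rose and 0 fell, with a median of 0.44, and 14 were higher and 1 lower at an adjusted p below 0.05 in limma. The 3 that rose met the level set for expressed genes in ATRA alone and so had to be higher there. Among the 19 that met it in both groups, 0 rose and 0 fell, with a median of 0.42. CSF1R, the M-CSF receptor, went from 31, 49 and 40 to 279, 278 and 422 (2.99), IL10RA changed by 1.62 and IL15RA by 1.85, the last with an adjusted p of 0.499 (limma) when the deposited values were fitted as they are. CSF3R, the G-CSF receptor of neutrophils, had 3281, 3287 and 3515 against 1752, 1785 and 1878, a difference of 0.90 (adjusted p = 2.51e-07, limma).

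Pattern recognition, Fc and paired immune receptors gave 7 rises and 2 falls among 24 expressed genes, with a median of 0.69. Of the 24, 5 met the level set for expressed genes in ATRA alone and so had to be higher there. Among the 19 that met it in both groups, 2 rose and 2 fell, with a median of 0.52. LILRB2, an inhibitory receptor for class I molecules, had 337, 342 and 439 counts in ATRA and 6, 5 and 4 in DMSO (log2 fold change 5.96). CD36, a scavenger receptor, had 59, 59 and 109 counts against 1, 0 and 0 (5.87 on the log2 scale). SIGLEC7, CD300A and LILRA1 rose by 3.33, 3.14 and 2.57 (LILRA1 by 2.01 without both libraries that stood apart), and TYROBP, the adaptor DAP12 of such receptors, by 1.53. TLR9, a sensor of DNA, and CLEC5A, a lectin that signals through DAP12, fell by 1.39 and 1.10 on the log2 scale. TLR4, the endotoxin receptor, differed by 0.87 and CLEC12A, a lectin of immature myeloid cells, by −0.86. FCGR3A and FCGR3B, the CD16 genes of mature neutrophils, were at 0 in all 6 libraries.

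Interferon-stimulated genes were a large group among the rises, and the labels name no interferon among the treatments. Of 38 expressed genes of the list, 21 rose and 1 fell, and the median was 1.10. Among the 33 at the level in both groups, 17 rose and 1 fell, with a median of 1.01. IFI6 had 529, 553 and 569 counts in ATRA and 85, 86 and 79 in DMSO (log2 fold change 2.71), MX2, an antiviral GTPase, had 263, 210 and 272 against 44, 30 and 43 (2.65), and IRF1 had 4792, 5082 and 4294 against 881, 815 and 759 (2.53). PARP14, an ADP-ribosyltransferase, had 732, 964 and 1267 against 134, 188 and 223 (2.43). IFIT5 had 87, 77 and 90 against 15, 12 and 2, and its 3.32 became 2.57 without DMSO replicate 3. HERC5, the ligase that attaches ISG15 to proteins, was the fall, from 578, 574 and 462 counts to 152, 171 and 105 (−1.93). ISG15 itself differed by 0.48 (adjusted p = 0.034, limma), which was lost without ATRA replicate 2 (0.0906), ATRA replicate 3 (0.0804), DMSO replicate 2 (0.112) or DMSO replicate 3 (0.0607).

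Antigen presentation by class I molecules moved the same way. Of 18 expressed genes, 7 rose and 0 fell (15 were higher and 0 lower at an adjusted p below 0.05 in limma), with a median of 0.88. PSMB9, an immunoproteasome subunit, had 1716, 1675 and 1703 counts in ATRA and 507, 484 and 542 in DMSO (log2 fold change 1.73), and HLA-E rose by 1.47. The proteasome activators PSME2 and PSME1 rose by 1.39 and 1.09, the peptide-trimming enzymes ERAP1 and ERAP2 by 1.38 and 1.25, and TAPBP, the loading factor tapasin, by 1.08. HLA-B had 28681, 30021 and 29057 against 15596, 15874 and 15951, a difference of 0.89, and B2M, the light chain, differed by 0.49. Genes of TNF and NF-κB signalling gave 2 rises and 0 falls among 28, beside 5.54% of all expressed genes that rose, 8 higher and 5 lower at an adjusted p below 0.05 in limma, and a median of 0.07. TNFAIP2 rose from 1333, 1462 and 1497 counts to 10655, 13388 and 12375 (3.08). BCL3 rose by 1.25, and lost the adjusted p after quantile normalization (0.0552, limma) and without ATRA replicate 2 (0.0682) or DMSO replicate 3 (0.0588).

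Cell cycle genes had hardly changed at 36 h. Of the 49 expressed DNA replication genes, 0 rose and 0 fell in limma by both limits, with 6 higher and 5 lower at an adjusted p below 0.05, and the median was −0.05 (0.04 after quantile normalization). Of 44 mitotic genes, again 0 passed both limits, with 16 higher and 3 lower at an adjusted p below 0.05 and a median of 0.16. MKI67, the proliferation antigen Ki-67, had 10377, 14218 and 13997 counts in ATRA and 9028, 8801 and 9494 in DMSO, a difference of 0.48 (adjusted p = 0.00688, limma) that was lost without both libraries that stood apart (0.0617). TOP2A, topoisomerase II, differed by 0.40, TK1, thymidine kinase, by 0.65, and UNG, which removes uracil from DNA, by −0.86. In RNA from a mixed culture, fewer cells of a type and less RNA per cell cannot be told apart.

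Regulators of the G1 step gave 4 rises and 0 falls among 26 expressed genes, with 11 higher and 7 lower at an adjusted p below 0.05 in limma and a median of 0.17. The antiproliferative genes BTG2 and BTG1 had 116, 103 and 105 against 48, 24 and 22 (log2 fold change 1.84) and 3061, 2240 and 3012 against 984, 770 and 630 (1.81). CDKN2D, an inhibitor of CDK4 and CDK6, had 566, 321 and 274 against 152, 118 and 85 (1.67), and E2F2, a factor of S-phase entry, rose by 1.31. The inhibitors CDKN2C and CDKN1B differed by 0.80 and 0.44, and the kinases CDK6 and CDK4 by −0.67 and −0.54, all at an adjusted p below 0.05 in limma. CDKN1A, which encodes p21, had 2, 3 and 1 counts in ATRA and 124, 3 and 0 in DMSO, so it was below the level set and was high in DMSO replicate 1 alone.

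Ribosome biogenesis was the list most evenly lowered. Of its 42 genes, all expressed, 40 were lower and 0 higher at an adjusted p below 0.05 in limma, against 25.3% and 21.8% of all expressed genes, and the median was −0.68. By both limits 4 fell and 0 rose. These were LYAR, a nucleolar growth regulator, from 4596, 4572 and 4019 counts to 1981, 1705 and 1534 (log2 fold change −1.34), RRP9, a small nucleolar RNA-binding protein (−1.33), PNO1, of the small subunit (−1.15), and BOP1, of the large subunit (−1.11). NPM1, nucleophosmin, had 120460, 127197 and 108212 counts in DMSO and 82134, 76380 and 68966 in ATRA, a difference of −0.65, and NCL, nucleolin, had 94715, 98014 and 86571 against 61547, 57390 and 47574, a difference of −0.75. NOP56 and FBL, core proteins of the particles that methylate ribosomal RNA, differed by −0.74 and −0.45. The 56 genes of the ribosomal proteins themselves did not share this shift, with 11 higher and 0 lower at an adjusted p below 0.05, 0 past both limits and a median of 0.11, and RPL3 differed by 0.25. The MYC network list gave 1 fall, MYC, and 0 rises among 10 expressed genes, with a median of −0.03.

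In sugar metabolism the hexokinases diverged. HK2, the hexokinase of proliferating cells, went from 5135, 4639 and 3924 counts to 2534, 1983 and 1385 (log2 fold change −1.25, SE 0.19, adjusted p = 0.000168, limma), against the rise of HK3, while HK1 had 149, 144 and 182 against 192, 98 and 123, which overlap (log2 fold change 0.25, adjusted p = 0.404, limma). SLC2A5, the fructose transporter GLUT5, went from 2892, 2670 and 2751 to 15789, 16134 and 14650 (log2 fold change 2.49). These made 2 rises and 1 fall among 23 expressed glycolytic genes, 10 were lower and 3 higher at an adjusted p below 0.05 in limma, and the median was −0.16. LDHA, lactate dehydrogenase, had 52805, 54668 and 49471 counts in DMSO and 30754, 29444 and 23845 in ATRA, a difference of −0.91, and PFKM, a phosphofructokinase, differed by −0.88.

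The list of pentose phosphate, serine and nucleotide synthesis genes was lower as a group, with 21 of 30 lower and 3 higher at an adjusted p below 0.05 in limma and a median of −0.52, although by both limits 1 rose and 1 fell. PGD, which makes NADPH in the pentose phosphate pathway, was the rise, from 10633, 10384 and 9958 counts to 22467, 22585 and 21275 (log2 fold change 1.10). PSAT1, of serine synthesis, was the fall, from 5759, 5907 and 5068 to 2816, 2529 and 1945 (−1.21). TKT, transketolase, differed by 0.66 and DHODH, of pyrimidine synthesis, by −0.95. In the tricarboxylic acid cycle and oxidative phosphorylation 0 of 44 genes passed both limits in limma, with 3 higher and 13 lower at an adjusted p below 0.05 and a median of −0.13, and IDH3A, a subunit of isocitrate dehydrogenase, differed by −0.57. At that adjusted p, 21.8% of all expressed genes were higher and 25.3% lower.

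Sterol genes were lower. Of 28 expressed genes of cholesterol synthesis and transport, 1 rose and 2 fell, 15 were lower and 2 higher at an adjusted p below 0.05 in limma, and the median was −0.48. LSS, lanosterol synthase, had 4557, 5600 and 5168 counts in DMSO and 2336, 2256 and 2120 in ATRA (log2 fold change −1.19), and HMGCS1, an early enzyme of the pathway, had 6127, 9308 and 6410 against 2740, 2936 and 3626 (−1.22). ABCA1, the cholesterol exporter, was the rise, with 2098, 2788 and 855 counts in ATRA against 321, 551 and 122 in DMSO. Replicate 3 was lowest in both groups, and the log2 fold change of 2.61 became 2.02 without DMSO replicate 3 and 3.21 without both libraries that stood apart.

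Stress programmes were lower on balance. In the integrated stress response 2 of 20 expressed genes rose and 5 fell, with a median of −0.46. ASNS, asparagine synthetase, went from 3959, 4018 and 3593 counts to 1450, 1324 and 1072 (log2 fold change −1.60). TRIB3, a pseudokinase, changed by −1.37 and SLC7A5, an amino acid transporter, by −1.32, beside CHAC1 and ATF5 given above. The rises were CEBPB and DDIT4, an inhibitor of mTORC1, with 2363, 2847 and 2762 counts in ATRA against 762, 881 and 908 in DMSO (1.64). ATF4, the factor at the head of this response, differed by −0.48, which lost the adjusted p without both libraries that stood apart (0.0819, limma). Of 22 expressed heat shock and chaperone genes, 14 were lower and 1 higher at an adjusted p below 0.05 in limma, with a median of −0.54, and 1 fell by both limits, HSPA4L (−1.09). HSP90B1, HSPD1, HSP90AB1 and HSPA5 differed by −0.87, −0.82, −0.55 and −0.52. HSPA8, the constitutive HSC70, had 37544, 38525 and 64383 counts in DMSO and 22882, 23689 and 37795 in ATRA. Replicate 3 was high in both groups, and the difference of −0.73 had an adjusted p of 0.0527 in limma and of 7.80e-09 with the replicate number as a block.

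Antioxidant genes gave 0 rises and 1 fall among 28 expressed genes, with 11 lower and 3 higher at an adjusted p below 0.05 in limma and a median of −0.25. Over all expressed genes 5.54% rose and 2.44% fell, and 25.3% were lower and 21.8% higher at that adjusted p. PRDX1, a peroxiredoxin, went from 13546, 13172 and 12348 counts to 6951, 6532 and 6006 and fell by 1.00 on the log2 scale (SE 0.08). SOD1, the cytosolic superoxide dismutase, differed by −0.56 and PRDX5 by 0.56. These values stand beside the rises of CYBB and NCF1, and whether they are related was not tested.

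Lysosomal genes rose in part. Of 37 expressed genes, 6 rose and 0 fell, 22 were higher and 3 lower at an adjusted p below 0.05 in limma, and the median was 0.32. CTSZ, cathepsin Z, had 2829, 2766 and 3313 counts in ATRA against 603, 585 and 557 in DMSO (log2 fold change 2.35), and TFEB, a factor of lysosome formation, had 92, 184 and 196 against 11, 6 and 24 (3.55). SMPD1, NPC2 and GUSB, which handle sphingomyelin, cholesterol and glucuronides, rose by 1.85, 1.84 and 1.14, as CTSD did by 1.93. PSAP differed by 0.37 and LAMP1 by −0.32. Autophagy genes gave 1 rise, ATG16L2 at 1.70, and 0 falls among 30, beside 5.54% and 2.44% of all expressed genes, with a median of −0.01.

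Genes of the BCL2 family changed in opposite directions. Of 15 expressed genes, 2 rose and 1 fell, beside 5.54% and 2.44% of all expressed genes, with a median of 0.18. BCL2, which restrains apoptosis, went from 1980, 1801 and 1989 counts to 604, 646 and 639 (log2 fold change −1.61, SE 0.06). BCL2A1, a related survival gene, went from 10 counts in each DMSO library to 193, 155 and 169 (3.97). PMAIP1, which encodes the BH3-only protein NOXA, had 1715, 998 and 938 against 613, 518 and 443 (1.17). MCL1 differed by 0.44 and BID by −0.52, and BAX by 0.12 (adjusted p = 0.129, limma). The p53 target list gave 2 rises, BTG2 and PMAIP1, and 1 fall, AEN at −1.01, among 17 expressed genes, with a median of −0.18. The shares over all expressed genes were again 5.54% and 2.44%.

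Feedback regulators of signalling gave 7 rises and 2 falls among 28 expressed genes, with a median of 0.06. Besides SOCS3 and ID1, SOCS1 had 65, 59 and 69 counts in ATRA against 7, 4 and 11 in DMSO (log2 fold change 3.06), and DUSP6, the ERK phosphatase, had 4793, 4207 and 4959 against 1384, 1144 and 1362 (1.84). PIM1, a survival kinase, SKIL, a SMAD inhibitor, and ID2 rose by 1.97, 1.27 and 1.08. RGS16, which shortens G-protein signals, went from 518, 378 and 413 to 110, 54 and 64 (−2.56), and DUSP3 changed by −1.17. Among 25 expressed genes of DNA methylation and chromatin, 1 rose and 0 fell, beside 5.54% and 2.44% of all expressed genes, with a median of −0.03. The rise was PADI4, which citrullinates histones in neutrophils, with 178, 184 and 234 counts against 17, 17 and 27 (3.25). TET1, which oxidizes 5-methylcytosine, differed by −0.58.

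Markers of other cell types were followed as lists because HL60 cells can take several myeloid directions. Of 19 monocyte and macrophage markers 5 were expressed and all 5 rose, with a median of 2.86. Of the 5, 2 met the level set for expressed genes in ATRA alone, CSF1R and CD1D, and so had to be higher there. The 3 that met it in both groups also rose, with a median of 2.77. The list of 19 summed to 9051 to 9628 counts in ATRA and 1156 to 1425 in DMSO. S100A9, the calgranulin shared by monocytes and neutrophils, had 6521, 6559 and 6560 against 843, 694 and 767 (log2 fold change 3.09), its partner S100A8 rose by 2.41, and CD68, CD1D and CSF1R by 2.77, 2.86 and 2.99. Defining markers stayed low: CD14 had 2, 1 and 4 counts in ATRA and 3, 4 and 2 in DMSO, CD163 and MRC1 at most 3 in any library, and C1QB and C1QC were at 0.

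Of 14 eosinophil and basophil markers 6 were expressed, 1 rose (CCR3) and 4 fell (PRG2, GATA2, RNASE3 and MS4A2), with a median of −1.24. The list summed to 9675 to 10527 counts in DMSO and 1526 to 1646 in ATRA, while EPX, the eosinophil peroxidase, had at most 3 counts and IL5RA at most 1. MS4A2, a chain of the IgE receptor, had 81, 96 and 127 counts in DMSO against 46, 43 and 46 in ATRA (log2 fold change −1.13), and lost the adjusted p without ATRA replicate 2 (0.0574, limma) or DMSO replicate 3 (0.0767). RNASE2, a second eosinophil ribonuclease, differed by −0.93. The part of such cells in the falls of PRG2 and GATA2 was not tested.

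Erythroid and megakaryocytic markers had 2 expressed genes of 21, of which TFRC fell and 0 rose, and their sum of 28448 to 31101 counts in DMSO and 9896 to 12004 in ATRA included TFRC, while HBA1 was at 0. Of 23 lymphoid markers 3 were expressed and 0 passed both limits in limma, though all 3 were higher at an adjusted p below 0.05, with differences of 0.86 for CD4, which myeloid cells also carry, 0.85 for CD79A and 0.45 for NKG7. Epithelial and stromal markers had 3 expressed genes of 16 with 1 fall, VIM. Their sum was 215, 222 and 346 counts in ATRA and 4715, 1535 and 1288 in DMSO, highest in DMSO replicate 1. COL1A1, collagen, had 321, 7 and 7 counts in DMSO and 15, 16 and 33 in ATRA, and ACTA2, smooth muscle actin, had 141, 6 and 12 against 17, 21 and 50. Both were highest in DMSO replicate 1 and next highest in ATRA replicate 3, the libraries that stood apart, and the part of that RNA in other results was not tested beyond the values given without these libraries. The 2 expressed genes that could not be tested also rested on these libraries: CKMT2 had 446 counts in ATRA replicate 3 and at most 6 elsewhere, and HTRA1 had 161 in DMSO replicate 1 and at most 14 elsewhere.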

How the data were processed

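The authors aligned the paired reads of directional libraries to GRCh38 and deposited 1 log2 value per gene and library. Raising 2 to a deposited log2 value gives a whole number within a relative gap of 3.5e-05, and 0 is written as the log2 of 0.001. The methods describe RPKM, but no scaling by gene length was visible, so counts of different genes are not on 1 scale per length. DESeq2 is among the tools in the submitters' processing notes, while the aligner and counter are not stated in the sources at hand. Rows without a gene name, 330 of 28381, held at most 0.00926% of counts and were left out. Depth was estimated from the steps that scaling leaves among the whole numbers, and floors of 3 counts cover counting error only.

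A single limma 3.58.1 fit (R 4.3.3, lmFit, then eBayes with a trend, two-sided) of log2(scaled count + 1) took all 12 RNAseq libraries with 1 mean for each of 4 groups, over 13429 genes with a group mean of the log2 value above 3. Fold changes are on that log2(scaled count + 1) scale and understate changes of low genes. Calls needed a Benjamini-Hochberg adjusted p below 0.05 and a fold of at least 2. The script was tested on simulated data. Named genes are the markers, among called genes without overlap the 15 largest rises and falls in fold and the 5 largest in counts, and up to 6 called genes per list with the defining genes of that list. Lists come from general knowledge, and members, lists and tests were chosen with earlier results of these data known. Same-numbered ATRA and DMSO libraries deviated together (r of 0.217, 0.327 and 0.359 over 10488 genes). ATRA replicate 1 did so with DMSO replicate 2 as well, at 0.232, so pairing by number was not clear for replicate 1. The main fit held no term for the replicate number, so its p-values leave any pairing out. A fit with the replicate number as a block was an alternative, as were quantile normalization, other pseudocounts, filters and thresholds, and leaving out libraries. Coordinates and promoters come from RefSeq on GRCh38.p14. ATACseq was not used here, and some genes that the rule names are not reported here.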

Additional observations from a re-analysis of the deposited data

Results flagged for a closer look

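The response of the 5 markers to ATRA differed between genotypes by the interaction term of the limma fit, adjusted over all 13429 genes, of which 1317 (9.81%) passed. HK3 had 344, 302 and 346 counts in DMSO and 1384, 1285 and 1975 in ATRA among the libraries labelled HK3-null, a response of 2.20 against 4.09 in Cas9 control (difference −1.89, SE 0.28, adjusted p = 0.00117). The libraries with the HK3-null label thus held no less HK3 RNA than Cas9 control, and such a count cannot show whether the protein is made.

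ITGAM went from 372, 355 and 322 to 1791, 1510 and 1915 there, a response of 2.31 against 5.41 (difference −3.10, SE 0.17, adjusted p = 5.36e-07). CYBB went from 8433, 8696 and 7412 to 47716, 45030 and 44349, a response of 2.48 against 4.77 (difference −2.29, SE 0.15, adjusted p = 2.39e-06). CD38 went from 197, 202 and 175 to 7982, 6844 and 6708, a response of 5.22 against 9.85 (difference −4.63, SE 0.18, adjusted p = 4.02e-08). For these 3 genes the libraries labelled HK3-null were higher than Cas9 control in both treatments. TGM2 went from 4, 4 and 12 to 32339, 30084 and 39244, a response of 12.26 against 7.98 (difference 4.28, SE 0.75, adjusted p = 0.00325). In DMSO, TGM2 was at like levels in both genotypes, and in ATRA it was higher in the HK3-null libraries.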

How the results depend on the processing

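With the replicate number as a block, 602 genes rose and 266 fell, among them all 593 and 261 called without it. The block brought HSPA8 past the adjusted p and changed no other call given here. Looser limits moved the counts: an unadjusted p below 0.05 with a 1.5-fold limit gave 1166 rises and 936 falls, and an adjusted p with that fold 1130 and 907. Requiring a mean of 50 in both groups left 353 rises. Leaving out single libraries gave 551 to 637 rises and 228 to 312 falls, with log2 fold changes of 3.90 to 4.24 for HK3, 5.31 to 5.47 for ITGAM, 4.62 to 4.86 for CYBB, 9.73 to 9.97 for CD38 and 7.47 to 8.70 for TGM2, all still past the threshold. PRTN3 turned to 0.00155 without both libraries that stood apart, a setting chosen after seeing the data, and CEBPA to −0.00278 without ATRA replicate 2 and −0.00286 without DMSO replicate 3. Over single left-out libraries PRTN3 lay between −0.19 and −0.05 and CEBPA between −0.00286 and 0.18, and CEBPA was 0.20 without both. Neither had passed the test, and the cause was not tested. Of 224 named genes, 19 changed side or sign under at least 1 alternative. Medians of the lists for DNA replication, the MYC network, autophagy, signalling feedback and chromatin lie near 0 and changed sign under some settings. With 3 libraries a group, differences near the spread between replicates were not detectable, and genes below a mean of 50 were not described.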

Other observations

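The genes below were chosen after their values were seen, for having risen or fallen. CYP4F3, which inactivates leukotriene B4 in neutrophils, had 342, 413 and 356 counts in ATRA and 8, 11 and 6 in DMSO (log2 fold change 5.34, SE 0.17), PTGS1, cyclooxygenase-1, had 3195, 3271 and 3308 against 824, 853 and 807 (1.98), and PTGES, which makes prostaglandin E2, had 93, 149 and 82 against 1, 0 and 0 (6.39 on the log2 scale, and 6.89 without both libraries that stood apart). PIK3CG, the PI3-kinase of G-protein-coupled receptors, had 13420, 13755 and 12308 counts against 1834, 1757 and 1629 (2.92), its regulatory subunit PIK3R5 changed by 2.50, PRKCB, a protein kinase C, by 2.68, and GNG2, a G-protein gamma subunit, went from 45, 35 and 31 to 3403, 3403 and 3104 (6.46). FBP1, the gluconeogenic fructose bisphosphatase, went from 42, 34 and 44 to 4834, 5079 and 5424 (6.97, SE 0.10), and SAMHD1, which degrades deoxynucleotides, from 833, 774 and 758 to 3945, 3792 and 4200 (2.33). In none of these genes did the groups overlap.

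TERT, the telomerase catalytic subunit, had 995, 803 and 946 counts in DMSO and 157, 155 and 119 in ATRA (log2 fold change −2.67, SE 0.27), WT1, a zinc-finger factor of leukemic blasts, had 1295, 1221 and 1077 against 379, 319 and 228 (−1.98), and ASS1, of arginine synthesis, had 7662, 7314 and 7169 against 1778, 1666 and 1375 (−2.21). FGFR1, ZBTB16 and BCL11A changed by −2.72, −2.26 and −1.90 on the log2 scale.

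Genes that rose often lay near each other. Of 584 genes that rose and had RefSeq coordinates, 139 (23.8%) had another such gene within 100000 bases, while 1081 of 10574 expressed genes with coordinates (10.2%) had a gene that rose within that distance. Runs of such genes held SOCS3, DNAH17, CYTH1, TIMP2 and LGALS3BP (chr17:78356778-78979923, GRCh38.p14, 5 of 7 expressed genes), CIDEB, LTB4R, ADCY4 and RIPK3 (chr14:24305187-24339991, 4 of 6) and CCL24, RHBDD2, POR and STYXL1 (chr7:75810825-76048000, 4 of 5). Related genes in a cluster share sequence and ancestry and are not independent of each other.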
